A study of Rattus norvegicus with 18 samples.

Results

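The growth arrest genes Gadd45a, Gadd45b, Gadd45g, Cdkn1a, Btg1, Btg2 and Mdm2 were followed through birth in rat lung, in total RNA and in the RNA carried by large polysomes. They were chosen by name, as stress arrest genes, with the high polysome share of Gadd45b and Gadd45g and the stage changes of the genes already seen in these data. Every value below is therefore a description of the genes, and no p-value is given for them. A total of 9 probe sets were annotated to 6 of the 7 genes and to no other gene, out of 31042 probe sets on the array other than its controls. All 9 passed the filter on low signal, as did 21675 probe sets in all, which represented 11590 named genes. Btg2 had no probe set annotated to it here and was not analysed.

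Lungs of Wistar rats were excised and frozen at 3 stages: fetal day 19 (FD19, the canalicular lung), fetal day 22 (FD22) and day 1 after birth (P1, taken 5 h after delivery). Each stage had 3 litters and so 3 lysates. Each of the 9 lysates gave 1 Affymetrix array of total RNA, the steady-state level, and 1 array of polysomal RNA, recovered from the sucrose gradient fractions in which an mRNA carries more than 7 ribosomes. This gave 18 arrays in 6 groups of 3: FD19 total, FD22 total, P1 total, FD19 polysomal, FD22 polysomal and P1 polysomal. Fetuses were delivered surgically and newborns were born vaginally, so birth and route of delivery cannot be told apart. The lungs were whole tissue, in which fewer cells of a type and less RNA per cell cannot be told apart.

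The genes belong to the machinery that stops cell division. The 3 GADD45 proteins are small acidic stress sensors that bind PCNA and the Cdk1 and cyclin B kinase and switch on the MAP kinase kinase kinase MEKK4 (Map3k4), and their mRNAs are known for rapid induction and short life. Gadd45a is a classic target of p53, Gadd45b is induced by transforming growth factor beta and NF-kB signalling, and Gadd45g by cytokines. Cdkn1a encodes p21, the inhibitor of cyclin-dependent kinases through which p53 arrests the cycle. Btg1 and Btg2 are antiproliferative proteins that bring the CCR4-NOT deadenylase to mRNAs, and Mdm2 is the ubiquitin ligase that degrades p53 and is itself induced by it. An mRNA that is denser on large polysomes than in total RNA is one that carries many ribosomes, relative to the other mRNAs on the array.

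The array carried no sequence in the tables used here, so the promoters stand for the genes in sequence terms. RefSeq promoters (build GRCr8) were found for all 7 genes. The 250 bases before the annotated start were searched on both strands for 7 motifs. These were the TATA box (TATAAA), the CCAAT box, the GC box (GGGCGG), the cyclic AMP response element (TGACGTCA), the AP-1 element (TGAGTCA), the p53 motif by 1 of its repeats, and the serum response element. The upstream 250 bases of Gadd45a (chr4:97486800-97487049, minus strand) and of Gadd45g (chr17:13530352-13530601, minus strand) are shown because these 2 genes of 1 family had their highest mean signal at FD22 in both RNAs. They read 5′ to 3′ on the gene's strand, with CCAAT boxes, the TATA box and the GC box (read here from the other strand) in capitals.
Gadd45a: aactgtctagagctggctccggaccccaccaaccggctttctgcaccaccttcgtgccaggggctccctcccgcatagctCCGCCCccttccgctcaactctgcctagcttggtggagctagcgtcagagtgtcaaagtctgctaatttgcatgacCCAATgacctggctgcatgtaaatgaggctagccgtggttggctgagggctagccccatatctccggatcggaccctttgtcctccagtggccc
Gadd45g: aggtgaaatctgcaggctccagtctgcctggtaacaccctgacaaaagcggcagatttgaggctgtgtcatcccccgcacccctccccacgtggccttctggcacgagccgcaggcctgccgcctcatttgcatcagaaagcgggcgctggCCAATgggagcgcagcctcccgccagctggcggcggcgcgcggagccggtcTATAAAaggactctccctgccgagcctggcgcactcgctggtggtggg
Each of the 2 promoters held 1 CCAAT box, which 34.0% of 33469 promoters of the same length hold. Gadd45g held 1 TATA box (12.9% of all promoters) and no GC box, and Gadd45a held 1 GC box (30.5%) and no TATA box. The p53 motif matched at 1 place in Gadd45a and at 1 in Cdkn1a (6.6% of all promoters) and in none of the other 5 genes. Of the 7 promoters, that of Btg2 alone held the cyclic AMP response element (1.6% of all), and none held the AP-1 element (4.0%) or the serum response element (1.5%). For Gadd45b, Cdkn1a and Mdm2 the annotated gene model reaches further upstream, so the bases searched can lie within it. A match is a description of letters and not a site of binding.

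Before the results, 2 features of the arrays bear on them. The arrays numbered 1 had the lowest median signal of their group in 6 of 6 groups, within medians of 51.6 to 73.5 over the 18 arrays. The lysate of FD22 replicate 2 carried liver RNA: albumin (Alb) read 5662 in its total RNA and 4891.5 in its polysomal RNA, against 31.6 to 147 in the other 16 arrays. The summed signal of the 5 liver markers was 8258.5 and 7967.1 there and 111.6 to 358.6 elsewhere. Lung markers were present in every array, with the surfactant gene Sftpc between 3836 and 9138.7. Some values that rest on FD22 are also given without that lysate.

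**Figure D1:**
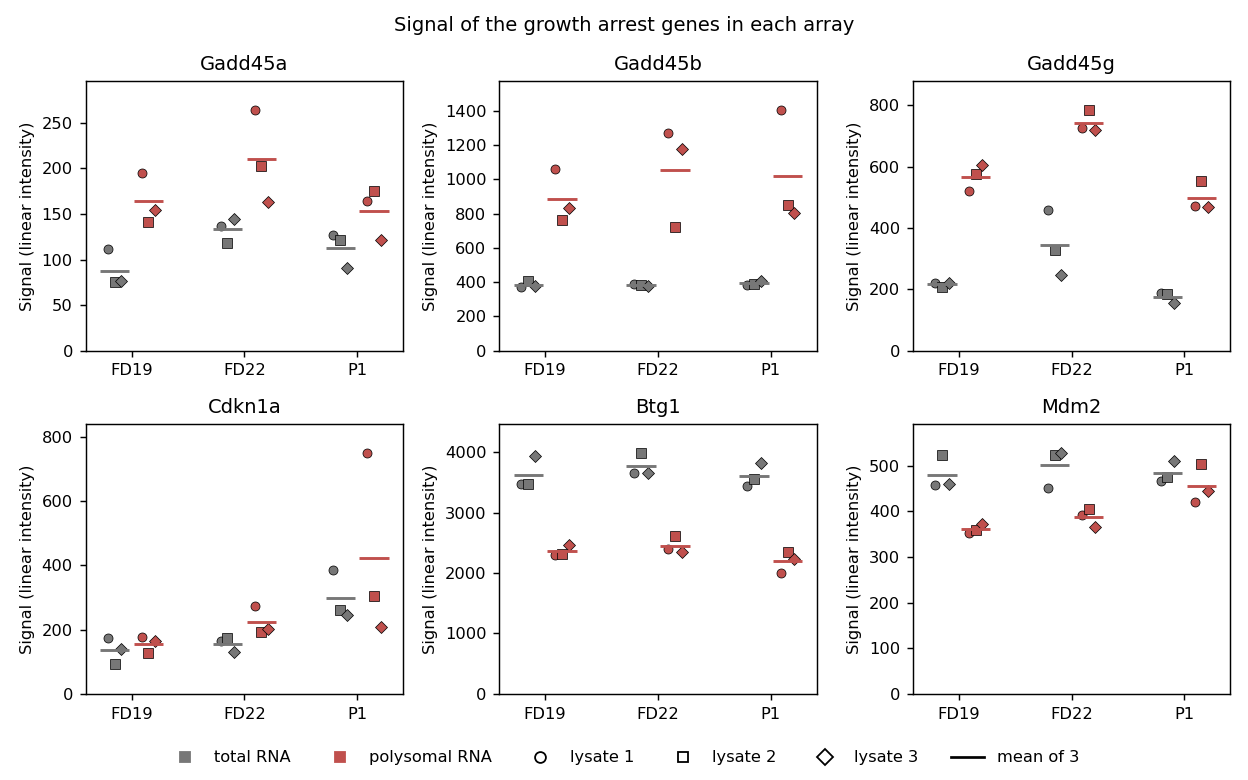
Signal (linear intensity) of 1 probe set per gene in each of the 18 arrays, by stage, with total RNA in grey and polysomal RNA in red, 1 symbol per lysate and a bar at the mean of 3. For Gadd45b all 9 polysomal arrays lie above all 9 total arrays, and for Btg1 all 9 lie below.

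Gadd45b (probe set 1372016_at) was level in total RNA and much brighter on large polysomes. In total RNA its signal was 372.9, 404.1 and 375.5 at FD19, 391, 384.4 and 375.7 at FD22, and 385.7, 389.8 and 407.5 at P1. In polysomal RNA it was 1061.6, 760.4 and 832.2 at FD19, 1267.3, 721.8 and 1174.2 at FD22, and 1404.4, 850.9 and 803.9 at P1. The 9 total arrays thus spanned 372.9 to 407.5, and the lowest polysomal array, at 721.8, was far above them. Group means ordered the 3 total groups (384 ± 7.67 at FD22, 384 ± 17.3 at FD19 and 394 ± 11.6 at P1; SD, n = 3) below the 3 polysomal groups (885 ± 157 at FD19, 1020 ± 334 at P1 and 1054 ± 292 at FD22). Neighbours within each trio overlapped, and only the step from total to polysomal RNA did not.

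Within each lysate the log2 of polysomal over total signal of Gadd45b was 1.18 ± 0.30 at FD19, 1.404 ± 0.44 at FD22 and 1.31 ± 0.47 at P1 (SD, n = 3), that is 2.26-fold, 2.65-fold and 2.48-fold. It was highest in the lysate numbered 1 at every stage, at 1.496, 1.68 and 1.85, and lowest in FD22 replicate 2 and FD19 replicate 2, at 0.90 in both. Averaged over the stages the fit gave 1.298 ± 0.12 (SE), which was rank 29 of 21675 probe sets. Without the arrays numbered 1 the mean was 1.11, and without FD22 replicate 2 it was 1.38. The part of either in the spread was not tested.

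Gadd45g (1388792_at) was also denser on polysomes than in total RNA, and it peaked at FD22 in both. Its total signal was 221, 209 and 220.4 at FD19, 457.7, 329.2 and 248.1 at FD22, and 188.7, 183.6 and 157.1 at P1. Its polysomal signal was 519.8, 576.3 and 606.2 at FD19, 726.7, 785.5 and 719.5 at FD22, and 473.4, 554.7 and 469.5 at P1. No FD22 array overlapped with FD19 or P1 in either RNA, although the total arrays of FD22 themselves differed widely. Group means rose from 176 ± 17.0 (P1 total) through 217 ± 6.76 (FD19 total), 345 ± 106 (FD22 total), 499 ± 48.1 (P1 polysomal) and 567 ± 43.9 (FD19 polysomal) to 744 ± 36.2 (FD22 polysomal; SD, n = 3). Of these neighbours only P1 and FD19 polysomal overlapped.

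The polysomal over total ratio of Gadd45g was 2.57-fold at FD19 (log2 1.36 ± 0.13), 2.20-fold at FD22 (1.14 ± 0.44) and 2.77-fold at P1 (1.47 ± 0.15; SD, n = 3). Its mean of 1.32 ± 0.10 (SE) had rank 26 of 21675, next to Gadd45b. The wide spread at FD22 came with the lysate numbered 1, whose ratio was 0.66 against 1.24 and 1.51 in the other 2 and whose total signal was the highest. The ratio at FD22 differed from that at FD19 by -0.22 ± 0.23, and without that lysate by 0.015, with the sign turned. The ratio at P1 differed from that at FD22 by 0.33 ± 0.23 (SE), and without that lysate by 0.09.

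Gadd45a (1368947_at) had the smaller polysome excess of the 3. In total RNA the signal was 111.5, 75.2 and 76 at FD19, 136.4, 117.6 and 144.8 at FD22, and 126.7, 121.5 and 91.1 at P1. In polysomal RNA it was 195.2, 141.6 and 154.6, then 264, 202.8 and 163, then 164.3, 174.9 and 121 at the same stages. Polysomal arrays lay above total arrays without overlap at FD19 and FD22, while at P1 the lowest polysomal array (121) fell below the highest total array (126.7). In the order of the 6 group means, from FD19 total (87.6 ± 20.7) over P1 total (113 ± 19.2), FD22 total (133 ± 13.9), P1 polysomal (153 ± 28.6) and FD19 polysomal (164 ± 28.0) to FD22 polysomal (210 ± 50.9; SD, n = 3), every pair of neighbours overlapped.

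The log2 ratio of Gadd45a was 0.87 ± 0.10 at FD19, 0.62 ± 0.40 at FD22 and 0.42 ± 0.08 at P1 (SD, n = 3), or 1.83-fold, 1.53-fold and 1.34-fold. The 3 lysates of FD19 (0.78, 0.87 and 0.97) were all above the 3 of P1 (0.36, 0.51 and 0.39). The share of all probe sets whose ratios separate these stages was not counted. Mdm2 1383288_at and 1384427_at also separated them, with P1 the higher. FD22 replicate 3, at 0.17, was the lowest of the 9. The mean of 0.64 ± 0.12 (SE) had rank 1001 of 21675.

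**Figure D2:**
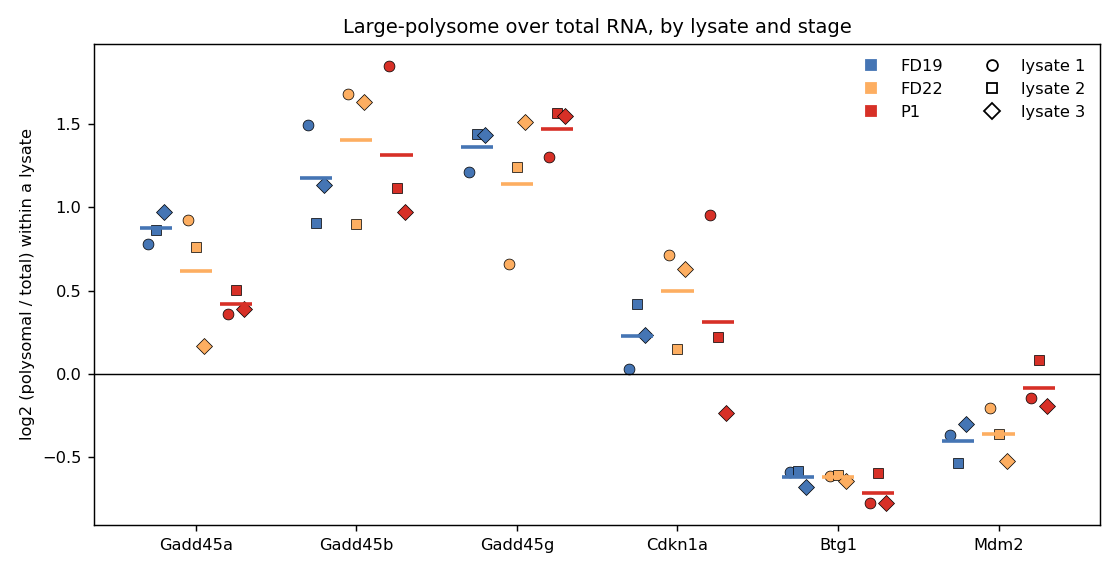
log2 of polysomal over total signal within each of the 9 lysates for 6 genes, coloured by stage, with a symbol per lysate and a bar at the mean of 3. The 3 Gadd45 genes are above 0 in every lysate and Btg1 is below 0 in every lysate.

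All 3 Gadd45 genes exceeded 0 in 9 of 9 lysates, as did 11.8% of all probe sets tested. Their polysomal arrays also lay above their total arrays without overlap in 3 of 3 genes at FD19 (19% of all probe sets) and FD22 (12.5%) and in 2 of 3 at P1 (14.8%). These shares are given only as the background, because the polysome share chose the genes. Relative to the median of all probe sets (-0.09), the mean ratios stood higher by 1.41 (Gadd45g), 1.38 (Gadd45b) and 0.72 (Gadd45a). Centring every array on its median moved the median of all ratios to 0.11 and quantile normalization to 0.01. Under these the distances from the median were 1.41 and 1.27 for Gadd45g, 1.38 and 1.23 for Gadd45b and 0.72 and 0.69 for Gadd45a.

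**Figure D3:**
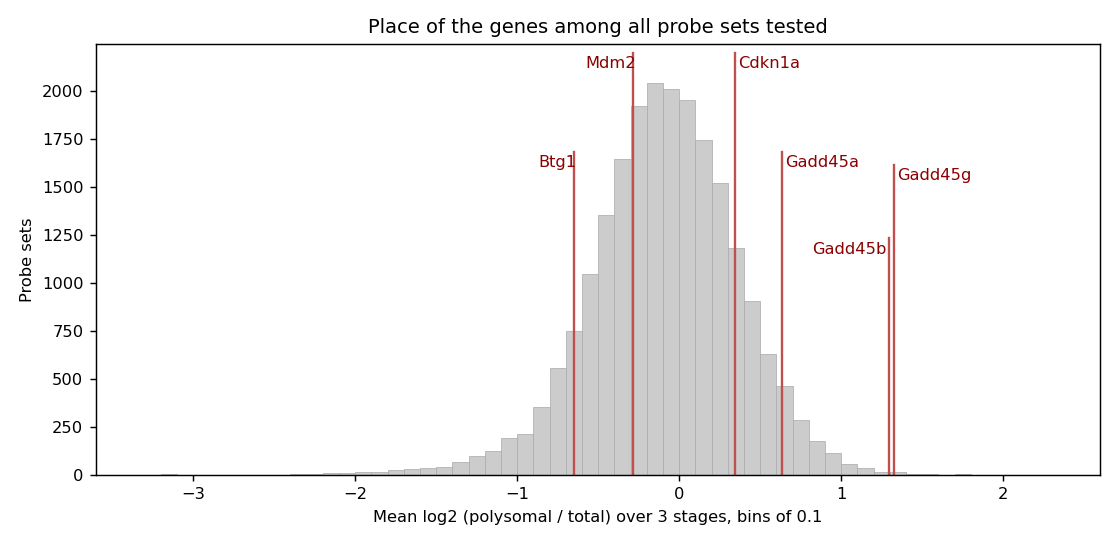
Histogram of the mean log2 of polysomal over total signal over 3 stages for all 21675 probe sets tested, in bins of 0.1, with red lines at the 6 genes. Gadd45b (1.298) and Gadd45g (1.32) lie at the far right edge, Gadd45a (0.64) and Cdkn1a (0.35) on the right slope, and Mdm2 (-0.28) and Btg1 (-0.65) left of 0.

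Cdkn1a (1388674_at) was brightest after birth. Its total signal was 172.9, 94.4 and 138.5 at FD19, 164.1, 173.8 and 129.4 at FD22, and 384.7, 262 and 246.8 at P1. On polysomes it was 176.7, 128.3 and 163.9 at FD19, 272.4, 193.5 and 203.4 at FD22, and 749.1, 306.1 and 208.8 at P1. All 3 P1 total arrays exceeded every fetal total array, whereas on polysomes P1 overlapped with FD22 and replicate 1 alone was far above the rest. Group means ran from 135 ± 39.4 (FD19 total), 156 ± 23.3 (FD22 total) and 156 ± 25.1 (FD19 polysomal) to 223 ± 43.0 (FD22 polysomal), 298 ± 75.6 (P1 total) and 421 ± 288 (P1 polysomal; SD, n = 3). Among these neighbours only FD19 and FD22 polysomal did not overlap.

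From FD22 to P1 Cdkn1a differed by 0.89 ± 0.33 (SE) in total RNA, 1.86-fold, and by 0.71 ± 0.33 on polysomes. Without P1 replicate 1 the polysomal difference was 0.19, and without all arrays numbered 1 it was 0.34, against 0.74 in total RNA. The second probe set, 1387391_at, was dim, at 1.7 to 14.9 in FD19 total RNA and 24.8 to 91 in P1 total RNA, and its difference from FD22 to P1 was 1.09 ± 0.55 in total and 1.69 ± 0.55 in polysomal RNA. These were 0.60 in total RNA without P1 replicate 1 and 0.82 on polysomes without the arrays numbered 1. Both probe sets thus had their highest mean at P1 in both RNAs. The ratio of 1388674_at was 0.23 ± 0.20, 0.50 ± 0.30 and 0.31 ± 0.60 by stage (SD, n = 3), positive in 8 of 9 lysates, with P1 replicate 3 at -0.24 and P1 replicate 1 at 0.95. The share of all probe sets with such a count was not taken.

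Btg1 (1367657_at) was the opposite of the Gadd45 genes in its place on polysomes. The total signal was 3477.1, 3480.1 and 3934.2 at FD19, 3662.2, 3984.6 and 3657.6 at FD22, and 3434.9, 3550.7 and 3821.3 at P1. On polysomes it was 2305.9, 2317.4 and 2457.7 at FD19, 2392.5, 2610.7 and 2342.3 at FD22, and 2002.7, 2343.6 and 2227.8 at P1. The highest polysomal array (2610.7) was below the lowest total array (3434.9), and within each RNA the 3 stages overlapped. Group means were ordered P1 polysomal (2191), FD19 polysomal (2360), FD22 polysomal (2448), P1 total (3602), FD19 total (3630) and FD22 total (3768).

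The log2 ratio of Btg1 was -0.62 ± 0.05, -0.62 ± 0.02 and -0.72 ± 0.10 at the 3 stages (SD, n = 3), with the narrowest spread of the 6 genes at FD19 and FD22, and it was below 0 in 9 of 9 lysates, as were 16.2% of all probe sets. In fold terms polysomal signal was 0.652, 0.65 and 0.608 of the total signal. Its mean was -0.65 ± 0.05 (SE), -0.45 after median centring and -0.32 after quantile normalization. On polysomes P1 differed from FD22 by -0.16 ± 0.09 (SE), or by -0.48 after quantile normalization, which moved the ratio change of that step from -0.10 to -0.41. The distance of its mean ratio from the median of all probe sets was -0.57 as deposited and after centring and -0.33 after quantile normalization.

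Mdm2 was measured by 3 probe sets that differed among themselves. The brightest, 1383288_at, read 456.9, 523.6 and 460.3 in total RNA at FD19, 451.6, 523.4 and 527.2 at FD22, and 466.1, 475.3 and 509.7 at P1. On polysomes it read 352.4, 359.4 and 372, then 391.5, 405.2 and 365.4, then 420.3, 502.8 and 445.3. Polysomal arrays were below total arrays without overlap at FD19 and FD22, and at P1 they overlapped. The share of all probe sets that lay lower on polysomes without overlap is not given here. The order of the means was FD19 polysomal (361), FD22 polysomal (387), P1 polysomal (456), FD19 total (480), P1 total (484) and FD22 total (501), and among these neighbours only FD22 and P1 polysomal did not overlap.

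The ratio of that probe set was -0.40 ± 0.12, -0.36 ± 0.16 and -0.09 ± 0.15 by stage (SD, n = 3), and below 0 in 8 of 9 lysates. The share of all probe sets with such a count was not taken. The mean of 1383288_at, -0.28 ± 0.07 (SE), had rank 14803 of 21675 and was -0.09 after median centring. Probe set 1384427_at had ratios of 0.10 ± 0.20, -0.06 ± 0.20 and 0.40 ± 0.06, so its sign differed from that of 1383288_at at FD19 and P1 and was the same at FD22. On polysomes it read 139.4, 169.2 and 135.6 at FD22 and 228, 258.1 and 236.8 at P1, without overlap, a difference of 0.69 ± 0.19 (SE) or 1.61-fold, against 0.23 ± 0.12 for 1383288_at. Both of these probe sets were thus higher on polysomes at P1 than at FD22, and in total RNA neither separated the 2 stages. The third, 1383485_at, was dim, its mean ratio was -0.11 ± 0.32, and that sign turned under both scaling alternatives.

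**Figure D4:**
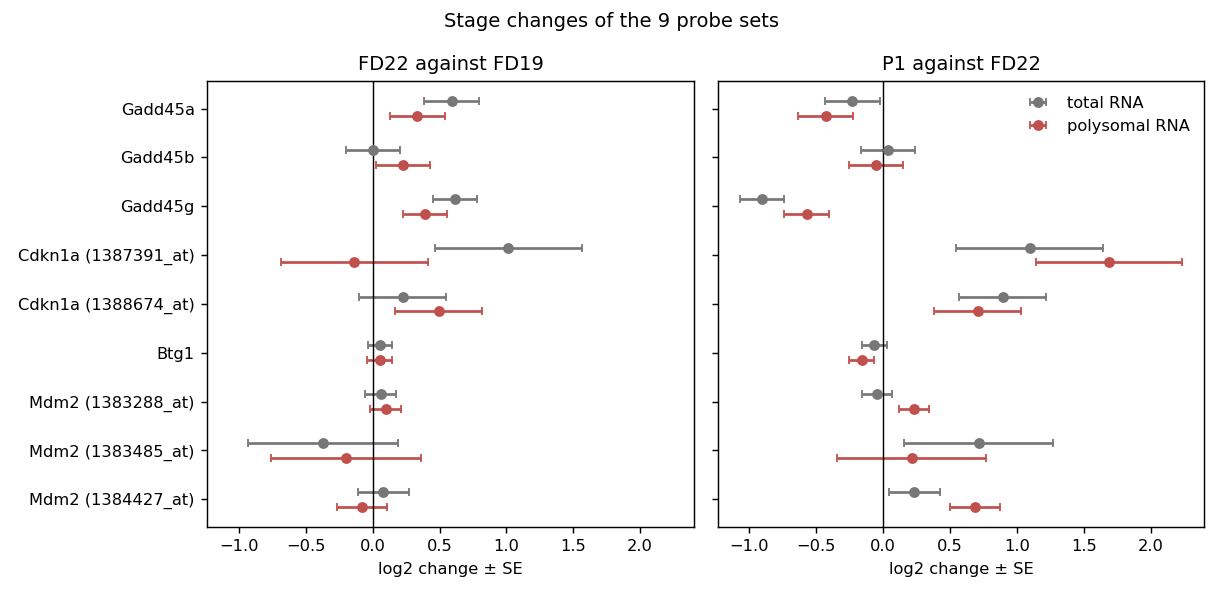
log2 change between stages with the SE of the fit for all 9 probe sets, total RNA in grey and polysomal RNA in red, FD22 against FD19 at left and P1 against FD22 at right. Gadd45g lies above 0 at left and below 0 at right in both RNAs, Cdkn1a lies above 0 at right in both, and Gadd45b in total RNA and Btg1 stay near 0.

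Set side by side, the stage differences of the genes went several ways. From FD19 to FD22 total RNA differed by 0.61 ± 0.17 for Gadd45g (1.53-fold), by 0.59 ± 0.21 for Gadd45a (1.505-fold) and by -0.00 ± 0.20 for Gadd45b (SE). On polysomes the same step was 0.39 ± 0.17, 0.33 ± 0.21 and 0.23 ± 0.20 in that order, and the last 2 moved with single lysates. That of Gadd45a ranged from 0.16 (without FD22 replicate 1) to 0.50 (without FD22 replicate 3), and that of Gadd45b from 0.07 (without FD22 replicate 1) to 0.48 (without FD22 replicate 2). Polysomal arrays did not overlap for Gadd45g and Cdkn1a 1388674_at, 2 of 9 probe sets, against 32.3% of all. The total arrays of Gadd45g and Gadd45a did not overlap between the stages, 2 of 9 probe sets, against 33.3% of all probe sets. For Gadd45g the total difference was 0.39 without FD22 replicate 1 and 0.82 without FD22 replicate 3.

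From FD22 to P1 Gadd45g fell back, by 0.91 ± 0.17 (SE) in total RNA (0.534-fold) and by 0.57 ± 0.17 on polysomes (0.672-fold), with no overlap of arrays in either. The total difference was -0.68 without FD22 replicate 1 and -1.118 without FD22 replicate 3, and without FD22 replicate 2 it was -0.92. Gadd45a differed by -0.23 ± 0.21 in total RNA (-0.09 without P1 replicate 3) and by -0.43 ± 0.21 in polysomal RNA (-0.25 without FD22 replicate 1). Gadd45b differed by 0.04 ± 0.20 and -0.05 ± 0.20, and the latter ranged from -0.31 (without P1 replicate 1) to 0.10 (without FD22 replicate 1), with -0.30 without FD22 replicate 2 and 0.01 after median centring. Without overlap were 2 of 9 probe sets in total RNA (Cdkn1a 1388674_at and Gadd45g, 20.8% of all) and 4 of 9 on polysomes (Cdkn1a 1387391_at, Gadd45g, Mdm2 1383288_at and 1384427_at, 23% of all).

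The polysome share itself was compared between stages as a ratio change. Over the 9 probe sets it ranged from -1.15 (the dim Cdkn1a probe set, SE 0.77) to 0.27 at FD22 against FD19, and from -0.50 to 0.59 at P1 against FD22. Over all 21675 probe sets 0 passed an adjusted p of 0.05 in the first (limma, with 781 at an unadjusted p under 0.05) and 3 in the second (0.0138%), or 17 with the lysate as a block. For the 3 Gadd45 genes the mean ratio was above 0 at each stage. The ratio at P1 was not fitted against that at FD19. The lysates of these stages did not overlap for Gadd45a, nor for Mdm2 1383288_at and 1384427_at, and the share over all probe sets was not counted.

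Markers of cell types and states moved over the same stages. All 19 measured proliferation genes fell in total RNA from FD19 to FD22 (limma, adjusted p under 0.05), with a summed signal of 9372 to 9996 at FD19, 3181 to 4716 at FD22 and 2367 to 2546 at P1. All 10 tested leukocyte genes rose over the first step, with a summed signal of 3158 to 3611 at FD19, 9062 to 12967 at FD22 and 10402 to 11378 at P1. Of 21 immediate early genes 6 rose from FD19 to FD22 and 9 from FD22 to P1 in total RNA, and on polysomes 15 rose and 1 fell in the second step, with total RNA sums of 5743 to 5841, 6904 to 8411 and 10710 to 11685. Among the remaining lists, 8 of 9 alveolar, 5 of 5 airway and 5 of 7 endothelial genes rose in the first step, 3 of 3 neutrophil genes rose, 3 of 6 erythroid genes fell, and 1 of 9 mesenchymal genes rose and 2 fell. The summed heart markers ranged from 740 to 4740 within FD22 polysomal RNA and from 844 to 2918 within FD22 total RNA. No marker named here was at 0, and the part of these shifts in the values of the arrest genes was not tested.

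The other p53 pathway genes were taken as a list of 56 symbols, of which 39 were tested, chosen with earlier results of these data known. In total RNA 6 rose and 2 fell from FD19 to FD22, against 16.2% of all probe sets, with a median of 0.06 beside 0.01 for all. Tap1, a peptide transporter of antigen presentation, rose by 2.28 ± 0.28 (adjusted p = 2.02e-05). Its FD19 total signal was only 2.3 to 6.3, and the rise ran from 1.17 to 3.06 with the constant added to the signals. Dusp1, the MAP kinase phosphatase, is also in the immediate early list above and rose by 1.34 ± 0.24 (adjusted p = 0.000659). Perp, a membrane effector of p53, rose by 1.16 ± 0.17 (adjusted p = 0.00011). Sesn1, an antioxidant sestrin, rose by 0.91 ± 0.26 (adjusted p = 0.0203), and lost the call after median centring and without FD19 replicate 1, FD19 replicate 2 (adjusted p = 0.0793) or FD22 replicate 1. The 2 that fell were Gtse1, a mitotic protein that restrains p53 (-2.69 ± 0.44, adjusted p = 0.000308), and the checkpoint kinase gene Chek1 (-1.19 ± 0.16, adjusted p = 5.24e-05). All 19 proliferation genes fell in the same step, and the part of this in the 2 values was not tested.

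On polysomes the same step gave 6 higher and 1 lower of the 39 (15.9% of all probe sets), among them Tap1 at 1.59 ± 0.28 (adjusted p = 0.000673) and Chek1 at -1.04 ± 0.16 (adjusted p = 0.000218). From FD22 to P1, 2 of 39 rose in total RNA and 0 fell (3.97% of all probe sets), namely Dusp1 (1.14 ± 0.24, adjusted p = 0.00995) and Dusp5 (0.77 ± 0.20, adjusted p = 0.0354). Dusp1 is also 1 of the 21 immediate early genes, of which 9 rose in this step in total RNA. The adjusted p of Dusp1 was 0.0664 without FD22 replicate 2 and 0.0574 without P1 replicate 3. Dusp5 kept its call in 9 of 17 alternatives, with an adjusted p of up to 0.133 (without P1 replicate 3), and 6 of the 9 single lysates ended it when left out. On polysomes 3 rose and 4 fell (8.34% of all), with Dusp1 up by 1.123 ± 0.24 (adjusted p = 0.00677) and Ptp4a3, a phosphatase, at -1.304 ± 0.25 (adjusted p = 0.00339). Dusp5 also rose on polysomes, by 0.90 ± 0.20 (adjusted p = 0.00855), and this call held in 17 of 17 alternatives.

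In the mean ratio, 9 of the 39 were higher and 12 lower on polysomes, against 18.8% and 27.6% of all probe sets (46.4% in both directions), with a median of -0.06 beside -0.09 for all. Mdm4, the partner of Mdm2 in holding p53 down, was among the lowest, at -0.94 ± 0.10 (adjusted p = 1.24e-06) with a second probe set at -0.73 ± 0.18 (adjusted p = 0.00297). Ppm1d, a phosphatase induced by p53, was at -0.64 ± 0.13 (adjusted p = 0.000679) and cyclin G1 (Ccng1) at -0.55 ± 0.11 (adjusted p = 0.000459). Among those higher were Phlda3, an inhibitor of Akt (0.79 ± 0.13, adjusted p = 0.000109), and the dim Tap1 (0.81 ± 0.16, adjusted p = 0.000561). The value of Tap1 ran from 0.45 to 1.06 with the constant added to the signals. The share of all called probe sets that was higher on polysomes was 40.6% as deposited, 70.3% after median centring and 53.6% after quantile normalization, so a count by direction rests on the scaling.

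Binding partners and effectors of the GADD45 proteins, together with other stress genes such as Ppp1r15a and Ddit3, formed a list of 14 tested genes. Of these, Ccnb1 and Cdk1 are also in the proliferation list above. In total RNA 0 rose and 4 fell from FD19 to FD22 (16.2% of all probe sets changed), namely cyclin B1 (Ccnb1, -1.69 ± 0.18, adjusted p = 3.71e-06), its kinase Cdk1 (-1.17 ± 0.20, adjusted p = 0.000439), the sliding clamp Pcna (-0.93 ± 0.14, adjusted p = 0.000146) and Tdg, a DNA glycosylase of demethylation (-0.55 ± 0.18, adjusted p = 0.0402). The call of Tdg held in 10 of 17 alternatives and ended with no filter and without FD19 replicate 1 or 3, FD22 replicate 1 or 3, P1 replicate 1 or the arrays numbered 1 (adjusted p = 0.255). From FD22 to P1, 1 of the 14 rose and 1 fell in total RNA (3.97% of all probe sets changed). Ppp1r15a, also called Gadd34, rose by 0.65 ± 0.16 (adjusted p = 0.0265, held in 12 of 17 alternatives). Cdk1 differed by -0.72 ± 0.20 (adjusted p = 0.0476, held in 6 of 17). On polysomes Ppp1r15a rose by 0.75 ± 0.16 (adjusted p = 0.0069) in the same step. In the mean ratio 5 were higher and 2 lower on polysomes, and Tdg led with 0.98 ± 0.10 (adjusted p = 5.53e-07), followed by Cdk1 (0.76 ± 0.12, adjusted p = 3.71e-05) and Gadd45gip1, a protein that binds GADD45 (0.65 ± 0.15, adjusted p = 0.00153). The list had 7 of 14 genes called there, against 46.4% of all probe sets.

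Of 12 tested genes of the BTG and TOB family and their deadenylase partners, 0 rose and 1 fell in total RNA from FD19 to FD22 (16.2% of all probe sets changed) and 1 rose at P1 (3.97%). The last was Btg3, a relative of Btg1 (0.55 ± 0.13, adjusted p = 0.0209, and held in 11 of 17 alternatives). It ended without any 1 of the FD22 lysates, P1 replicate 2 or P1 replicate 3 (adjusted p = 0.0858). On polysomes 1 rose and 1 fell in the first step (15.9% of all) and 0 were called in the second (8.34% of all; limma, with 2 at an unadjusted p under 0.05). In the mean ratio 4 were higher and 2 lower, 6 of 12 against 46.4% of all probe sets, with Cnot8, a catalytic deadenylase subunit, at 0.65 ± 0.08 (adjusted p = 3.44e-06) and Cnot2, a scaffold subunit, at 0.38 ± 0.07 (adjusted p = 0.000333). Btg3 was at 0.30 ± 0.08 (adjusted p = 0.0034), whereas Btg1 was at -0.65.

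Among 16 other CDK inhibitors, cyclins and retinoblastoma family genes, 2 rose and 9 fell in total RNA from FD19 to FD22, against 16.2% of all probe sets changed. Those that rose were Cdkn2b, the inhibitor p15 (1.00 ± 0.23, adjusted p = 0.00623, and 0.0729 without the arrays numbered 1), and the pocket protein gene Rbl2 (0.84 ± 0.14, adjusted p = 0.000359), and those that fell included cyclin A2 (Ccna2, -2.05 ± 0.29, adjusted p = 6.55e-05) and Cdk4 (-1.11 ± 0.19, adjusted p = 0.000402). The inhibitor genes Cdkn1c (-0.48 ± 0.12, adjusted p = 0.0123) and Cdkn2c (-0.43 ± 0.14, adjusted p = 0.0397) also fell. Their calls held in 13 and 10 of 17 alternatives, with an adjusted p of up to 0.136 (quantile normalization) and 0.147 (without FD19 replicate 2). Both calls ended without the arrays numbered 1. That of Cdkn1c also ended without FD19 replicate 1 or 3, and that of Cdkn2c without any 1 of the FD19 lysates, FD22 replicate 1 or 3 or P1 replicate 3. On polysomes 2 rose and 6 fell. From FD22 to P1 Ccnd1, cyclin D1, rose by 1.09 ± 0.18 (adjusted p = 0.00177) in total and 0.97 ± 0.18 (adjusted p = 0.00273) in polysomal RNA, and Cdkn2c fell by 0.82 ± 0.14 (adjusted p = 0.00123) on polysomes. In the mean ratio 7 were higher and 0 lower on polysomes, against 18.8% and 27.6% of all probe sets. The largest were those of Cdkn2d, the inhibitor p19 (0.69 ± 0.09, adjusted p = 1e-05), Cdkn2b (0.57 ± 0.14, adjusted p = 0.00221) and Ccnd3 (0.54 ± 0.07, adjusted p = 4.63e-06).

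The genes most like each arrest gene were sought by the root mean square difference of the 6 group means in log2, each gene centred on its own mean, over 11589 other genes. Gadd45b was closest to Tollip (0.09), Necap2 (0.11) and Cfap298 (0.12). Gadd45g had more distant neighbours, G0s2 (0.19), Mcee (0.22) and Isoc2a (0.24). Nearest to Gadd45a were Ms4a6bl1 (0.05), Ralgdsl1 (0.06) and Sspn (0.08), and nearest to Cdkn1a were Mafk (0.04), Tmem43 (0.08) and Mcam (0.09). Btg1 was closest to Mbl2, Sbno1 and Mmp24 (0.04, 0.04 and 0.05) and Mdm2 to Fbxo27, Rnf5 and Zfp746 (0.04, 0.04 and 0.04). Among the 6 genes themselves the closest pair was Btg1 and Mdm2 (0.23), then Gadd45b and Gadd45g (0.32), and the most distant was Gadd45g and Btg1 (1.03). A small distance can also come from little variation. The SD of a gene's own 6 group means was 0.19 for Mdm2, 0.36 for Btg1 and 0.80 for Gadd45g.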

How the data were processed

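The deposited table held 1 linear intensity per probe set and array (Affymetrix Rat Genome 230 2.0), made by the authors with GCOS 1.4 per the submitters' processing notes. The algorithm is not given in the sources used here. Array trimmed means were 150 in the table, so a polysomal over total ratio is relative. Probe sets were named from the platform annotation: 20826 had 1 gene, 436 several and 9780 none. Controls (57 of 31099) were left out. Probe sets above 40.8, the 40th percentile, in at least 3 of 18 arrays were kept. Signals were analysed as log2(signal + 5.5), the 10th percentile, so folds of dim genes are understated. limma 3.58.1 in R 4.3.3 fitted 6 group means with 12 residual degrees of freedom and a variance trend, and p-values were adjusted by Benjamini-Hochberg over all kept probe sets, with a threshold of 0.05. The main fit had no term for the lysate, so the pairing of total and polysomal arrays was not used. This holds for every SE and adjusted p of a ratio unless a block is named. With the lysate as a block, the SE of the mean ratio of Cdkn1a 1388674_at was 0.109, against 0.188. The fit was tested on simulated data without such pairing. Figures used Python 3.11.15 and matplotlib 3.10.9.

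A gene with several probe sets was represented by the brightest. From each pathway list, up to 3 called genes with the largest change per comparison could be named, and Mdm4 always. Chek1, Perp, Sesn1, Tdg, Cdk4, Cdkn1c, Cdkn2b, Cdkn2c and Rbl2 in total RNA, Cdkn2c and Dusp5 on polysomes and Phlda3, Ppm1d, Ccng1 and Btg3 in the ratio were named after their values were seen. The members and lists were chosen with earlier results of these data known. Total and polysomal arrays of 1 number came from 1 lysate per the design, and their deviations correlated in 9 of 9 cases (0.186 to 0.488). Across stages all 3 correlations passed 0.1 for polysomal FD19 and FD22 (0.226 to 0.498) and not elsewhere. Those of the arrays numbered 1 were 0.371 to 0.498 in every pair of neighbouring stages. Alternatives were another constant (0.9 or 26.3), no filter or a filter at 96.4, median centring, quantile normalization, a replicate block, and leaving out the arrays numbered 1 or each lysate. The precision is limited by the number of arrays. Proteins were not analysed here.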

Additional observations from a re-analysis of the deposited data

Results flagged for a closer look

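In 3 pathway genes every lysate of 1 stage had the opposite sign of every lysate of another in log2 of polysomal over total signal. Only the arrest genes, Mdm4 and the called pathway genes with the largest changes were searched, over each pair of stages. A change in 1 RNA is part of the ratio change, so picking genes by large changes can favour such a split. The share of all probe sets with such a split was not counted, so these 3 cannot be set against it. The SE and adjusted p given here come from the fit without pairing. Gtse1 was at -0.70, -0.54 and -0.18 at FD19 and 1.38, 0.87 and 2.78 at FD22, a difference of 2.15 ± 0.63 (SE; limma adjusted p = 0.999), where its total signal at FD22 was 13.8 to 52.2. At P1 the signs of Gtse1 were mixed (1.66, -0.47 and 1.09). Dusp5 was at 0.30, 0.14 and 0.33 at FD19 and -0.39, -0.33 and -0.11 at FD22, a difference of -0.53 ± 0.28 (adjusted p = 0.999). Dusp5 was also at -0.19, -0.09 and -0.16 at P1, a difference from FD19 of -0.40 that was not tested. Cnot4 was at 0.29, 0.18 and 0.11 at FD19 and -0.03, -0.16 and -0.39 at P1, a difference of -0.39 that was not tested. At FD22 its signs were mixed (0.12, -0.29 and -0.19).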

How the results depend on the processing

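Of 1057 alternative values of the arrest genes, 1036 moved by less than 1 SD of the replicates, 21 moved by more and 0 of the called values changed sign. Changes of sign were counted only for values past the threshold, and smaller values did change sign. The ratio change of Btg1 at FD22 against FD19 kept its sign in 11 of 17 settings. That of Gadd45b on polysomes at P1 against FD22 was kept in 12 of 17. Of 813 alternative calls of the pathway genes picked by largest change, 703 kept their call, 110 lost it and 0 reversed. The calls named after their values were seen, such as those of Tdg, Cdkn2c and Sesn1 in total RNA, are not among the 813. With the replicate block, the probe sets called rose from 861 to 1457 (total RNA, P1 against FD22), from 1807 to 2731 (polysomal) and from 3 to 17 (ratio change, P1 against FD22), and the p53 list in total RNA at P1 from 2 to 5. The block moved no other count by over 1.5 times. Across stages the arrays of equal number came from different litters, but those numbered 1 deviated alike between neighbouring stages in both RNAs (0.371 to 0.498). For the numbers 2 and 3, both correlations passed 0.1 only between polysomal FD19 and FD22. What these arrays share was not tested. Without the arrays numbered 1, the calls were 2330 (main 3520) and 394 in total RNA, 2076 (main 3451) and 812 on polysomes and 0 for the ratio change at P1, and the p53 list had 1 in total RNA at P1 and 3 and 4 on polysomes (main 7 and 7). With no filter the p53 list had 1 call in total RNA at P1 and the ratio change at P1 had 1, as it had after median centring, while quantile normalization gave 1 ratio change at FD22 (main 0). Leaving out 1 lysate gave 2359 to 3580 and 447 to 767 calls in total RNA, 1996 to 3549 and 1075 to 1887 on polysomes, 8353 to 9781 for the mean ratio (main 10057) and 0 to 20 for the ratio change at P1. For the p53 list it gave 7 to 9 and 0 to 3 in total RNA, 4 to 8 and 4 to 7 on polysomes, and 16 to 21 for the mean ratio. Median centring moved the share of calls that were higher from 51.8% to 40.5% (total, FD22 against FD19), from 55.6% to 74.9% (total, P1 against FD22) and from 45.4% to 60.1% (polysomal, P1 against FD22). Fewer arrays were fitted where a lysate was left out, and for the other settings the cause was not tested.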
